A study of Mus musculus with 6 samples.

Results

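The hedgehog ligands *Shh* and *Dhh*, the receptor *Ptch1*, the signal transducer *Smo*, the ligand-binding inhibitor *Hhip*, the transcription factors *Gli1*, *Gli2* and *Gli3* and the Gli inhibitor *Sufu* were examined in brain mural cells and in whole brain microvessels. These 9 genes were taken from the pathway by name, and all 9 were among the 33460 genes of the expression tables. RNA was obtained from brains of *Pdgfrb-eGFP/NG2-DsRed* double transgenic mice at postnatal day 6, and each brain was cut in the sagittal plane so that one side gave sorted cells and the other gave vessels. One group consisted of 3 libraries of FACS sorted cells positive for both reporters (mural cells, that is pericytes and vascular smooth muscle cells), and the other of 3 libraries of microvascular fragments, pieces of vessel caught with beads against the endothelial protein CD31. Both groups carried both transgenes, and no treatment is given for either. Animals of either sex were used in the study. The eGFP is driven by *Pdgfrb* and the DsRed by the NG2 gene *Cspg4*, so the sort took cells in which both were active, and smooth muscle cells with weak DsRed may be under-represented. The fragments contain endothelial cells with mural cells still attached, so the comparison sets mural cells against a mixture that includes them. In this bulk RNA, fewer cells of a type and less RNA per cell cannot be told apart.

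In the hedgehog pathway, a secreted ligand binds Patched and thereby relieves the inhibition that Patched exerts on Smoothened. Smoothened then accumulates in the primary cilium, and the Gli proteins, held back by Sufu in the absence of ligand, are turned from repressors into activators of transcription. *Ptch1*, *Hhip* and *Gli1* are themselves classical targets of the pathway, and in the central nervous system hedgehog signalling is known for patterning of the neural tube, for proliferation of cerebellar granule cell precursors and for signals from astrocytes to brain endothelium.

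Expression is given as FPKM, in which fragments are scaled to transcript length and to the size of the library, a unit that allows levels of different genes to be compared. Approximately 5.41 to 5.94 M sequenced fragments lay on protein-coding genes in the microvascular libraries and 1.03 to 2.36 M in the mural cell libraries, so that low values are less certain in the latter. All 12 mural cell markers passed the test as higher in the sorted cells, by 6.47 to 12.5-fold, although *Pdgfrb* and *Cspg4* were used for the sort. Of 12 endothelial markers 6 were lower and 0 higher in limma (9 and 0 at an unadjusted p under 0.05), and their summed level remained at 1558 to 2032 FPKM in the mural cell libraries against 2104 to 2469 FPKM in the fragments. The sorted libraries thus held endothelial transcripts as well. All 8 microglial markers were lower in the sorted cells, and all 7 fibroblast markers tested were higher. The erythroid marker *Epb4.2* was at 0 in all mural cell libraries and at 0.424, 0.150 and 0 FPKM in fragments 1, 2 and 3. The 6 erythroid markers together came to 129 to 226 FPKM in fragments and 141 to 242 FPKM in mural cells. Of the 3 that were tested, 0 passed in either direction in limma.

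Of the 9 hedgehog genes, 7 reached the expression level needed for testing. *Smo*, *Gli1* and *Gli2* were higher in mural cells and *Dhh* was lower, whereas *Ptch1*, *Gli3* and *Sufu* did not pass the test. A gene passed when its adjusted p in limma was under 0.05. At this limit 9.34% of the 14801 genes tested were higher and 13% were lower in mural cells. With the further requirement of a 2-fold difference in mean FPKM, 2 of the hedgehog genes (*Gli1* and *Gli2*) were higher and 1 (*Dhh*) was lower, against 6.43% and 10.1% of all genes tested. The median log2 fold change was 0.51 over the 7 tested hedgehog genes and -0.12 over all genes tested. *Dhh* exceeded the minimum level through the fragments only, so that its passing the filter already required a difference. *Gli1* and *Gli2* reached the minimum in every mural cell library but not in every fragment library, so both passed the filter only with the mural cells.

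**Figure D1:**
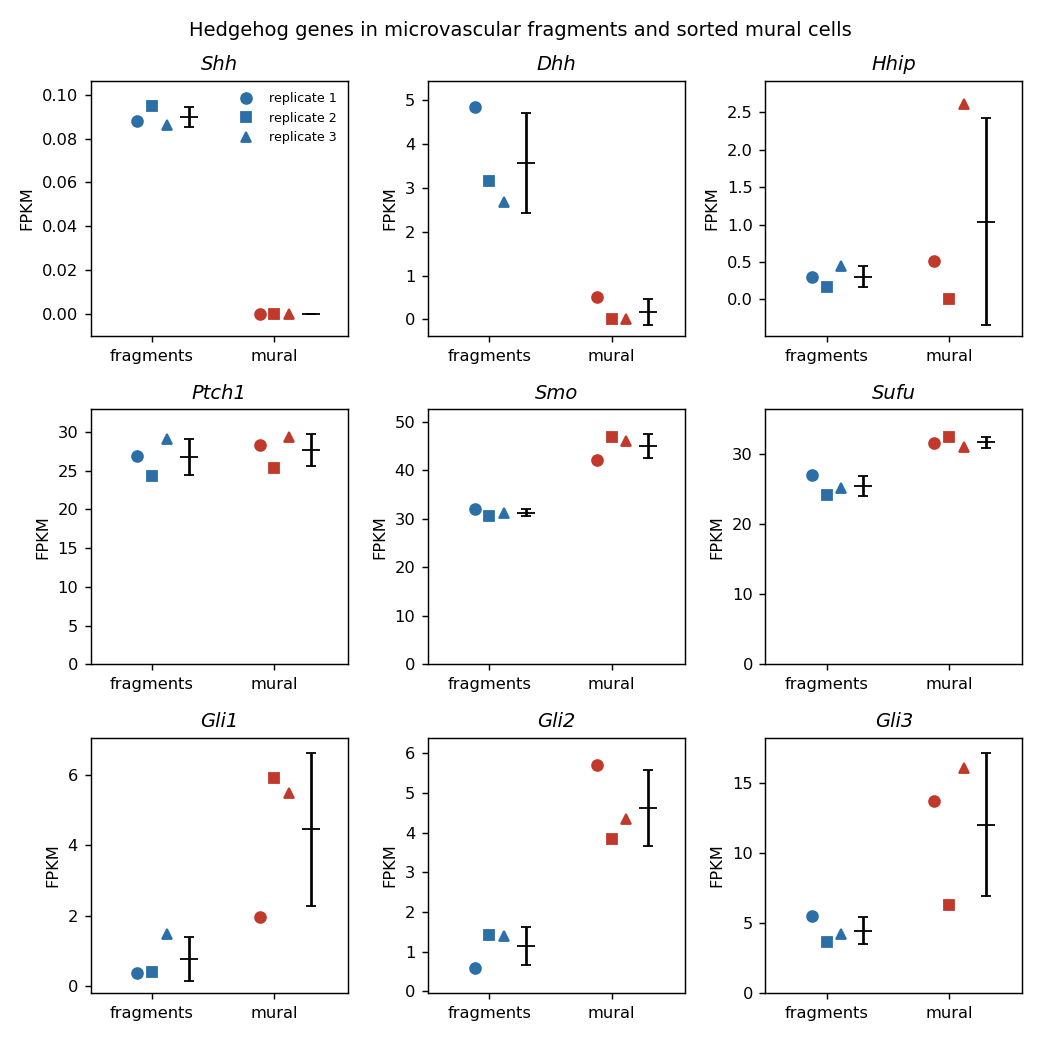
FPKM of the 9 hedgehog genes in each library, with microvascular fragments in blue, mural cells in red, the shape of the symbol giving the replicate number, and the bar beside the points the mean ± SD of 3 libraries. All 3 mural cell libraries lie above all 3 fragment libraries for *Smo*, *Sufu*, *Gli1*, *Gli2* and *Gli3*, and below them for *Shh* and *Dhh*. The share of all genes with such a separation was not computed. For *Shh* it rests on 1 sequenced fragment in each microvascular library and was not detectable as a difference at this depth.

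The ligands were at the bottom of the pathway in mural cells. *Shh* (ENSMUSG00000002633, NCBIM37 chr5:28783355-28793641, minus strand), the ligand of neural tube patterning, had 0.0878, 0.0948 and 0.0862 FPKM in fragments 1, 2 and 3, and 0 FPKM in each mural cell library. Each of the values in the fragments was worth 1 sequenced fragment. A level of up to 0.680, 1.62 and 1.53 FPKM (3 sequenced fragments) in mural libraries 1, 2 and 3 would be compatible with a count of 0, which is above the level in the microvessels, so a difference was not detectable at this depth. These limits cover counting error only. The exons of *Shh* also share 291 and 361 bases with 2 non-coding genes of the opposite strand, *9530036O11Rik* and *Gm17493*, and whether the counting used the strand is not given in the sources used here.

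*Dhh* (ENSMUSG00000023000, chr15:98723462-98728971, minus strand), a ligand known from Schwann cells and Sertoli cells and also found in endothelium, had 4.85, 3.17 and 2.68 FPKM in fragments 1, 2 and 3. In mural cells it had 0.522 FPKM in library 1 and 0 FPKM in libraries 2 and 3. All microvascular libraries were therefore above all mural cell libraries. The mean fell from 3.57 ± 1.14 to 0.174 ± 0.301 FPKM (SD, n = 3), a log2 fold change of -1.96 (SE 0.33, 95% confidence interval -2.73 to -1.19, adjusted p = 0.00536 in limma). For tests 1 was added to FPKM before taking log2, which makes changes of weakly expressed genes look smaller than they are. With 0.1 added in its place, the log2 fold change of *Dhh* was -4.27. The values rested on 48, 29 and 27 sequenced fragments in the microvessels and on 2, 0 and 0 in mural cells. Pooled over libraries, 2 against 104 sequenced fragments gave a ratio of 0.0783 (exact 95% interval 0.00935 to 0.290, counting error only). Markers of microglia moved in the same direction as *Dhh*, from a summed level of 1626 to 1900 FPKM in fragments to 105 to 172 FPKM in mural cells, with 8 of 8 lower, while 6 of 12 endothelial markers were lower. The part of these cells in the value of *Dhh* was not tested. The third ligand, *Ihh*, was found in 1 library only, fragments 2, at 0.210 FPKM.

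*Smo* and *Ptch1* were expressed at much higher levels than the ligands. *Smo* (ENSMUSG00000001761, chr6:29685694-29711365, plus strand), the transducer across the membrane, had 32.0, 30.5 and 31.3 FPKM in fragments 1, 2 and 3 and 42.2, 46.9 and 46.1 FPKM in mural cells 1, 2 and 3. The groups did not overlap, and within each the libraries lay close together. *Smo* was 1.44-fold higher in mural cells, with means of 45.1 ± 2.53 and 31.3 ± 0.742 FPKM (SD, n = 3) and a log2 fold change of 0.51 (SE 0.11, 95% confidence interval 0.24 to 0.78, adjusted p = 0.0179 in limma). This call was lost without any one of fragments 1, 2 and 3, where the adjusted p in limma was 0.0597, 0.0652 and 0.0624. It was also lost with the replicate number as a block (adjusted p = 0.0532 in limma). *Smo* was the most strongly expressed of the 9 genes in both groups, with 89.5% of protein-coding genes at a lower mean level in mural cells and 83.8% in fragments.

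*Ptch1* (ENSMUSG00000021466, chr13:63610261-63674474, minus strand), the ligand-binding receptor and a target of the pathway, had 26.8, 24.3 and 29.0 FPKM in fragments 1, 2 and 3 and 28.3, 25.3 and 29.4 FPKM in mural cells 1, 2 and 3. The ranges of the groups overlapped almost completely. The log2 fold change was 0.05 (SE 0.14, adjusted p = 0.842 in limma), with a 95% confidence interval of -0.28 to 0.37, and its sign turned without fragments 2 (-0.016). The ratio of *Smo* to *Ptch1* within a library was 1.19, 1.25 and 1.08 in fragments and 1.49, 1.85 and 1.57 in mural cells.

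*Hhip* (ENSMUSG00000064325, chr8:82490014-82581905, minus strand), a membrane protein that binds and sequesters ligand, was close to the limit of detection and was not tested. It had 0.306, 0.162 and 0.442 FPKM in fragments 1, 2 and 3 and 0.514, 0 and 2.61 FPKM in mural cells 1, 2 and 3. The groups overlapped, and the higher mean in mural cells (1.04 ± 1.38 against 0.303 ± 0.140 FPKM, SD, n = 3) came from mural library 3, with approximately 9 sequenced fragments.

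The Gli factors had the highest ratios of mural cells to fragments among the tested hedgehog genes. Summed over *Gli1*, *Gli2* and *Gli3*, FPKM came to 6.46, 5.49 and 7.13 in fragments 1, 2 and 3 and to 21.4, 16.0 and 25.9 in mural cells 1, 2 and 3. *Gli3* made up most of the sum in all libraries except mural library 2, at 85.2%, 66.7% and 59.5% in fragments and 64.3%, 39.2% and 62.1% in mural cells. In mural library 2 its share was close to the 36.9% of *Gli1*.

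**Figure D2:**
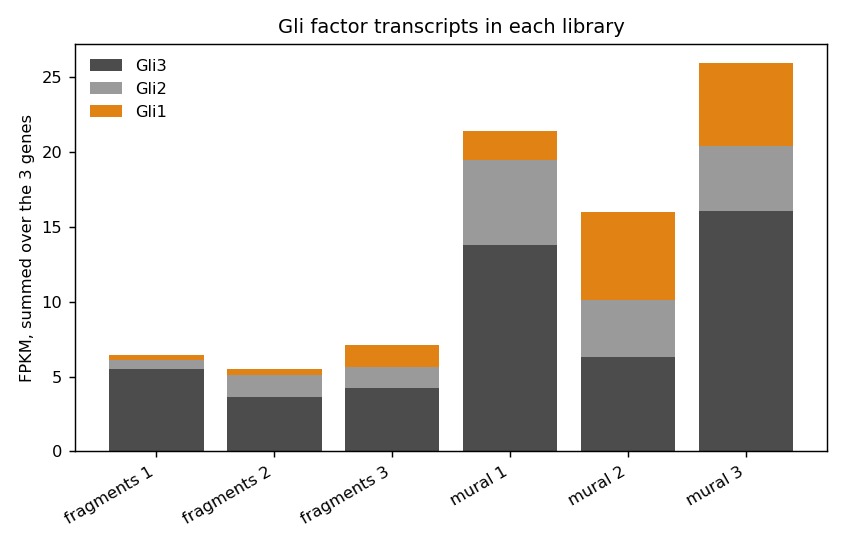
FPKM of *Gli1*, *Gli2* and *Gli3* stacked for each of the 6 libraries. The sum lies between 5.49 and 7.13 FPKM in the fragments and between 16.0 and 25.9 FPKM in the mural cells, and *Gli3* is the largest portion in each library.

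*Gli1* (ENSMUSG00000025407, chr10:126766945-126778645, minus strand), an activator whose transcription is commonly used as a readout of the pathway, had 0.379, 0.410 and 1.49 FPKM in fragments 1, 2 and 3 and 1.95, 5.91 and 5.49 FPKM in mural cells 1, 2 and 3. The groups did not overlap, but fragments 3 and mural library 1 lay near each other. The mean was 5.86-fold higher in mural cells (4.45 ± 2.18 against 0.759 ± 0.632 FPKM, SD, n = 3). The log2 fold change was 1.59 (SE 0.43, 95% confidence interval 0.57 to 2.61, adjusted p = 0.0377 in limma). The values rested on approximately 6.0, 6.0 and 23.9 sequenced fragments in the microvessels and on 11.9, 15.2 and 15.0 in mural cells. Leaving out any one of fragments 1, 2 and 3 or mural libraries 2 and 3 raised the adjusted p in limma to 0.133, 0.131, 0.0535, 0.0891 and 0.0870, so the call needed each of these libraries. Relative to *Ptch1*, *Gli1* stood at 0.0141, 0.0168 and 0.0513 in fragments 1, 2 and 3 and at 0.0690, 0.234 and 0.187 in mural cells 1, 2 and 3.

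Fragments 3, the microvascular library with the most *Gli1*, also had the most transcripts of some genes listed for cerebellar granule cells and their precursors. *Neurod1* had 4.93 FPKM there against 0 and 0.126 FPKM in fragments 1 and 2, *Cntn2* 7.13 against 0.453 and 0.700 FPKM, and *Barhl1* 2.91 against 0.283 and 0.546 FPKM. In the mural cells, *Atoh1*, the defining marker of these precursors, *Nhlh1* and *Gabra6* were at 0 in all libraries. For *Atoh1* a count of 0 allows up to 0.895, 2.13 and 2.01 FPKM in mural libraries 1, 2 and 3, above its 0.116, 0 and 0.341 FPKM in fragments 1, 2 and 3, so its absence could not be told at this depth. Other markers of the list were found in mural cells 1, 2 and 3, among them *Pax6* at 4.42, 8.70 and 9.73 FPKM. *Cntn2* was at 0.334, 0.396 and 0.376 FPKM there. In fragments 1, 2 and 3 *Pax6* had 4.575, 7.84 and 17.9 FPKM, again the most in fragments 3. *Pax6* did not pass (ratio 0.753, adjusted p = 0.760 in limma). The summed level of the 8 markers of this list was 54.2 to 89.5 FPKM in fragments and 82.1 to 105.6 FPKM in mural cells. Most of the sum in each library was *Zic2*, with 48.2, 59.7 and 55.1 FPKM in fragments 1, 2 and 3. In mural cells 1, 2 and 3 *Zic2* had 77.1, 95.9 and 83.1 FPKM, so the sum mainly reflects this gene. Of the 8 markers only 2 reached the level for testing, and 1 of them, *Zic2*, was higher in mural cells. *Zic2* and *Pax6* are named here after their values were seen. The part of these cells in the values of *Gli1* was not tested. Exons of *Gli1* also share 55 bases with *Arhgap9* on the opposite strand, which was lower in mural cells (log2 fold change -2.15).

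*Gli2* (ENSMUSG00000048402, chr1:120730709-120950196, minus strand), the main activator at the onset of a response, had 0.579, 1.42 and 1.40 FPKM in fragments 1, 2 and 3 and 5.70, 3.83 and 4.34 FPKM in mural cells 1, 2 and 3. All mural cell libraries were above all fragments, with a gap from 1.42 to 3.83 FPKM. *Gli2* was 4.08-fold higher in mural cells, with means of 4.62 ± 0.968 and 1.13 ± 0.480 FPKM (SD, n = 3) and a log2 fold change of 1.41 (SE 0.30, 95% confidence interval 0.70 to 2.12, adjusted p = 0.0151 in limma). Without fragments 1, which had the lowest level, the log2 fold change was 1.21 and the adjusted p in limma 0.0585. On average *Gli2* and *Gli1* were at similar levels in mural cells, where 51.0% and 50.6% of protein-coding genes lay lower.

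*Gli3* (ENSMUSG00000021318, chr13:15555068-15821859, plus strand), which acts largely as a repressor, had 5.50, 3.66 and 4.24 FPKM in fragments 1, 2 and 3 and 13.8, 6.29 and 16.1 FPKM in mural cells 1, 2 and 3. The groups did not overlap, but mural library 2 was close to fragments 1. The means were 12.04 ± 5.12 and 4.47 ± 0.940 FPKM (SD, n = 3), and the log2 fold change of 1.18 (SE 0.36, 95% confidence interval 0.34 to 2.02) did not pass, with an adjusted p of 0.0540 in limma. Without mural library 2 it was 1.55 with an adjusted p of 0.00724 in limma. Median-ratio scaling (0.0495), quantile normalization (0.0267), a minimum of 5 FPKM (0.0471) and the replicate number as a block (0.0457) also brought the adjusted p in limma under 0.05. It rose to 0.0851 without a filter on low values and to between 0.106 and 0.170 when any one of the other 5 libraries was left out, with the lowest log2 fold change, 0.94, without mural library 3.

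*Sufu* (ENSMUSG00000025231, chr19:46471386-46563294, plus strand), which retains Gli proteins in the cytoplasm, had 27.0, 24.2 and 25.2 FPKM in fragments 1, 2 and 3 and 31.6, 32.5 and 31.0 FPKM in mural cells 1, 2 and 3. The mural cell libraries were all above the fragments, by a small amount. The log2 fold change was 0.30 (SE 0.12, 95% confidence interval 0.02 to 0.59, adjusted p = 0.124 in limma). The sum of the Gli factors relative to *Sufu* was 0.239, 0.227 and 0.283 in fragments 1, 2 and 3 and 0.678, 0.494 and 0.837 in mural cells 1, 2 and 3.

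The ratios of *Gli1*, *Gli2* and *Gli3* (5.86, 4.08 and 2.70) were all below the 6.47 of *Cspg4*, the lowest among the 12 mural cell markers. Markers of fibroblasts were higher in the same libraries as the Gli factors. Their summed level was 61.6 to 71.0 FPKM in fragments and 501 to 684 FPKM in mural cells, all 7 that could be tested were higher, and *Dpt*, the eighth, was at 0 in all fragments and in mural libraries 2 and 3. Of this list, *Col1a2* and *Col3a1*, with means of 221 and 213 FPKM in mural cells, are also in the authors' catalogue of mural cell-enriched genes. Astrocyte markers summed to 336 to 459 FPKM in fragments and to 280, 240 and 868 FPKM in mural cells 1, 2 and 3, with 0 of 10 passing in limma in either direction, and 0 higher and 1 lower at an unadjusted p under 0.05. Mural library 3, with the most astrocyte transcripts, also had the most *Gli3* and *Hhip*. Among the microvascular libraries, fragments 2 had the most astrocyte transcripts (459 FPKM) and the least *Gli3* and *Hhip* (3.66 and 0.162 FPKM). The value of *Hhip* there rested on approximately 3 sequenced fragments. The part of fibroblasts and of astrocytes in the Gli values was not tested.

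In mural cells the order of mean levels was *Smo*, *Sufu*, *Ptch1*, *Gli3*, *Gli2*, *Gli1*, *Hhip*, *Dhh* and *Shh*. The libraries of *Gli2* and *Gli1* overlapped, as did those of *Gli1* and *Hhip*, of *Hhip* and *Dhh* and of *Dhh* and *Shh*, while the 4 most abundant genes followed each other without overlap between neighbours. In fragments the order was *Smo*, *Ptch1*, *Sufu*, *Gli3*, *Dhh*, *Gli2*, *Gli1*, *Hhip* and *Shh*, in which *Ptch1* overlapped with *Sufu*, *Gli3* with *Dhh*, *Gli2* with *Gli1* and *Gli1* with *Hhip*. *Dhh* thus ranked above *Gli1* and *Gli2* in the vessels and below them in the sorted cells.

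The promoters of *Gli2* and *Gli3*, whose levels were above those of the fragments in all mural cell libraries, and that of the pathway target *Ptch1*, whose groups overlapped, are shown as the 250 bases before the transcription start (RefSeq, GRCm38.p6). Capitals mark the core CCACCC of the Gli binding motif, or GGGTGG where the core lies on the other strand.
Gli2 (chr1:119053620-119053869, minus strand): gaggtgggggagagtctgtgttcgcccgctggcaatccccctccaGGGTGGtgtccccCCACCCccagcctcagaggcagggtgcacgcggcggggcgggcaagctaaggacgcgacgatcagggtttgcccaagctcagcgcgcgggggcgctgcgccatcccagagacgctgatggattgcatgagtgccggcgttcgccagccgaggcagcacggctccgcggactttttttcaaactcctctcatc
Gli3 (chr13:15463473-15463722, plus strand): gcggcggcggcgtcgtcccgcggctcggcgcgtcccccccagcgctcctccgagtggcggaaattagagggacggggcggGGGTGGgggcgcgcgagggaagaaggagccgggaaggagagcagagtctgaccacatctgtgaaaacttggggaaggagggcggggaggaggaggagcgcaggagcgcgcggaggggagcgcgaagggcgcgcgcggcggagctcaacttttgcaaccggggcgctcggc
Ptch1 (chr13:63565736-63565985, minus strand): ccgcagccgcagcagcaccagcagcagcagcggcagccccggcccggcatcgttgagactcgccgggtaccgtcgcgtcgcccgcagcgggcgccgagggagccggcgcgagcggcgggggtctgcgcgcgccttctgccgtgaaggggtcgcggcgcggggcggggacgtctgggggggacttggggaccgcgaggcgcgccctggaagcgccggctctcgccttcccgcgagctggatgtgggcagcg

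RefSeq promoters from 250 bases before to 50 bases after the start were found for 7 of the 9 genes, all but *Shh* and *Gli1*. The longer Gli motif GACCACCCA, searched on both strands, was in 0 of the 7 and in 0.253% of 32851 mouse promoters. The core, which is part of this motif, was in 5 of the 7 and in 31.5% of all promoters. The 7 promoters held 56.3 to 76.3% G and C bases, against a median of 52.7% over all promoters. The share over all promoters is therefore not a like background for this core of mostly C bases. *Gli2* held 2, at 205 and 192 bases before the start, and *Gli3* 1 at 170 bases. *Smo*, *Hhip* and *Dhh* each held 1, at 162, 158 and 88 bases, whereas *Ptch1* and *Sufu* held none in this window. The core was thus in the promoters of *Smo* and *Gli2*, which were higher in mural cells, and in that of *Dhh*, which was lower.

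Genes whose levels followed those of a called member most closely over the 6 libraries were found by Euclidean distance between centred log2(FPKM + 1) profiles. They were *Slc25a2* (0.215), *Tcp11* (0.361) and *Casc1* (0.369) for *Dhh* and *Smpd1* (0.0841), *Atp5g3* (0.102) and *Tle1* (0.116) for *Smo*. For *Gli1* they were *Lrch2* (0.527), *Gabrb2* (0.531) and *Hif3a* (0.559), and for *Gli2* they were *Gpr81* (0.354), *Bhlhe22* (0.355) and *Pid1* (0.371). The distances from *Gli1* were the longest and those from *Smo* the shortest of the 4 genes. The measure grows with the size of the differences between libraries, which were smallest for *Smo*.

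Beyond the 9 genes, 103 others of the pathway were listed, of which all but 2 were found and 97 were tested. Of these, 26 were higher and 4 lower in mural cells and 67 did not pass, where 9.34% of all genes tested were higher and 13% lower. With the 2-fold requirement, 17 were higher and 3 lower, against 6.43% and 10.1% of all genes tested. Their median log2 fold change was 0.18.

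The coreceptors and glypicans, which present ligand to Patched or withhold it, had the highest median, 1.47, and 5 of the 7 tested were higher in mural cells, as were 9.34% of all genes tested. *Boc*, a coreceptor of the immunoglobulin family, had 2.85, 3.13 and 3.36 FPKM in fragments 1, 2 and 3 and 7.99, 7.95 and 6.30 FPKM in mural cells 1, 2 and 3 (log2 fold change 1.03, adjusted p = 0.0181 in limma). The related *Cdon* had a ratio of 0.972 and *Gas1*, a membrane-anchored coreceptor, a ratio of 2.35, and neither passed (adjusted p = 0.938 and 0.0839 in limma). The other called genes of this list were heparan sulfate proteoglycans.

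*Gpc3*, a glypican that competes with Patched for ligand, had 16.8, 17.9 and 12.5 FPKM in fragments 1, 2 and 3 and 94.5, 120.4 and 109.5 FPKM in mural cells 1, 2 and 3. It was 6.87-fold higher (log2 fold change 2.71, adjusted p = 1.18e-04 in limma), with no overlap between the groups. *Gpc6* was 6.23-fold, *Gpc4* 4.91-fold and *Gpc1* 3.06-fold higher in mural cells.

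Among genes for release of the ligand, *Scube1* was 2.73-fold higher and *Adam17*, a metalloprotease with many substrates, had a ratio of 0.466. The acyltransferase *Hhat*, which adds palmitate to hedgehog proteins, did not pass (ratio 1.31, adjusted p = 0.779 in limma). Of 5 genes tested in this list, 3 did not pass.

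The regulators of Smoothened and Gli had 33 tested members, of which 7 were higher and 2 lower, beside 9.34% and 13% of all genes tested. *Evc* and *Evc2*, the partners of a complex at the base of the cilium that binds Smoothened, had the highest ratios of the list. *Evc2* had 2.93, 1.18 and 1.17 FPKM in fragments 1, 2 and 3 and 13.4, 14.2 and 11.7 FPKM in mural cells 1, 2 and 3, a 7.43-fold difference (adjusted p = 0.00159 in limma). *Evc* had 2.00, 3.15 and 4.05 FPKM in fragments 1, 2 and 3 and 16.0, 14.0 and 30.7 FPKM in mural cells 1, 2 and 3, a 6.60-fold difference (adjusted p = 0.00333 in limma). In neither gene did the groups overlap.

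The other regulators that were higher were kinase subunits, which act in many pathways. *Prkar1a*, the regulatory subunit of protein kinase A, was 2.13-fold higher, its catalytic partner *Prkacb* 1.56-fold, and the casein kinases *Csnk1e*, *Csnk1g2* and *Csnk1a1* were 1.64-, 1.33- and 1.33-fold higher. *Arrb2* (beta-arrestin) and *Adrbk1* (a receptor kinase), which act on Smoothened and on many other receptors, were lower, with ratios of 0.313 and 0.591. Their direction was that of the microglial markers, whose part in these values was not tested.

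Of 32 genes of the primary cilium, 6 were higher, 0 lower and 26 did not pass in limma, and at an unadjusted p under 0.05 there were 6 higher and 1 lower. Over all genes tested, 9.34% were higher and 13% lower in limma. The list had a median log2 fold change of 0.07. The 6 were the intraflagellar transport genes *Wdr35* (2.06-fold), *Ift57* (1.97-fold), *Ift20* (1.90-fold) and *Ift81* (1.85-fold), *Tulp3* (2.16-fold), which brings receptors into the cilium, and *Cc2d2a* (1.60-fold) of the transition zone.

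Among 20 other target genes tested, 7 were higher and 1 lower, beside 9.34% and 13% of all genes tested, and the median was 0.17. *Foxd1*, a forkhead factor, had 3.19, 5.12 and 3.14 FPKM in fragments 1, 2 and 3 and 31.4, 35.6 and 35.4 FPKM in mural cells 1, 2 and 3, an 8.95-fold difference (adjusted p = 1.93e-04 in limma). The nuclear receptors *Nr2f1* and *Nr2f2* were 5.76- and 4.38-fold higher, and *Angpt1*, which encodes the ligand of the endothelial receptor Tie2, was 5.75-fold higher. The forkhead factors *Foxc2* and *Foxf2* were 5.53- and 1.50-fold and the cyclin gene *Ccnd2* 2.09-fold higher. *Igfbp3*, a binding protein of insulin-like growth factors, was lower with a ratio of 0.231. All of these genes are regulated by other pathways too.

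Of the 26 genes higher in mural cells, 15 passed with each of the 6 libraries left out in turn, and of the 4 that were lower 2 did. The share of all called genes that passed in this way was not computed. The 15 were *Angpt1*, *Ccnd2*, *Csnk1e*, *Evc*, *Evc2*, *Foxc2*, *Foxd1*, *Gpc1*, *Gpc3*, *Gpc4*, *Gpc6*, *Ift20*, *Nr2f1*, *Nr2f2* and *Prkar1a*, and the 2 were *Adrbk1* and *Igfbp3*. For the others, *Boc* and the remaining cilium genes included, the highest adjusted p in limma lay between 0.0631 (*Foxf2* without fragments 3) and 0.162 (*Ift81* without fragments 1).

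**Figure D3:**
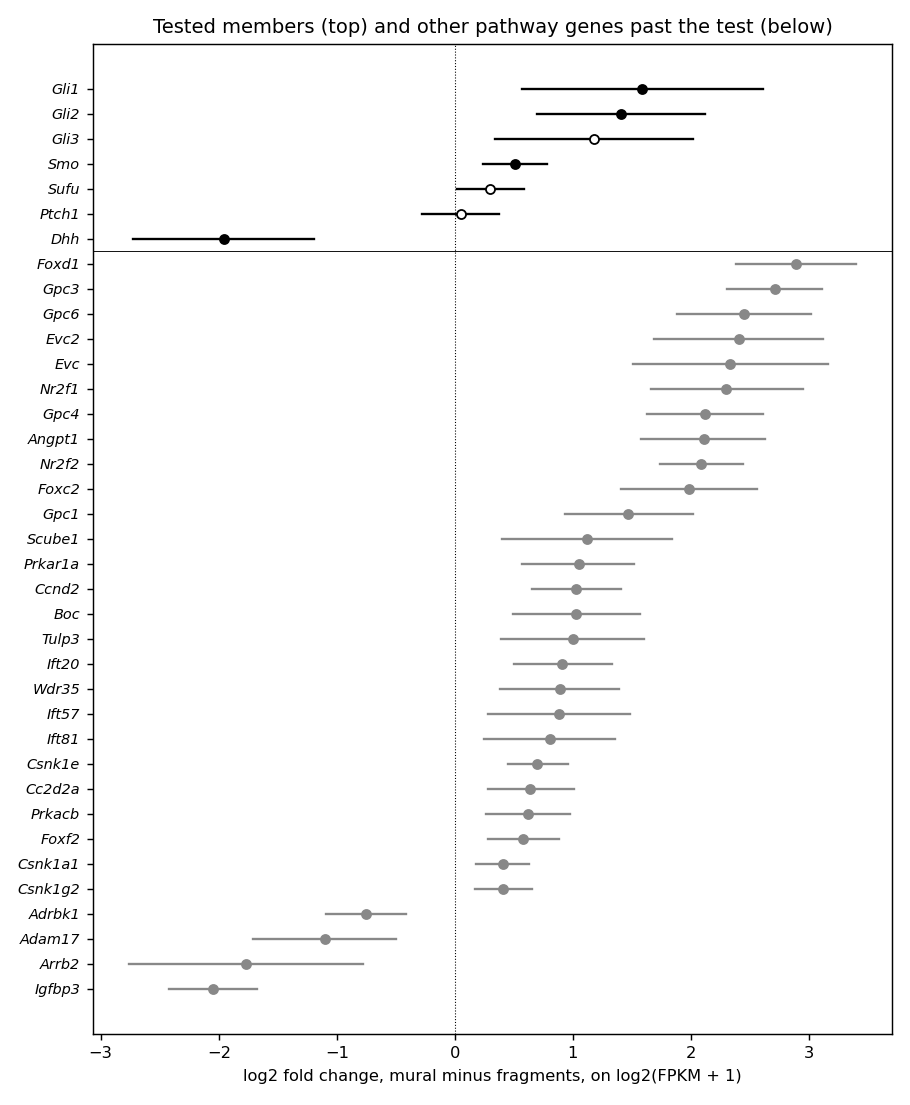
Log2 fold changes between mural cells and microvascular fragments on the log2(FPKM + 1) scale, with 95% confidence intervals from limma, for the 7 tested hedgehog genes in black (filled where they passed) and the 30 other pathway genes that passed in grey. *Gli1* (1.59), *Gli2* (1.41) and *Smo* (0.51) lie to the right and *Dhh* (-1.96) to the left, and the interval of *Ptch1* spans 0.

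**Figure D4:**
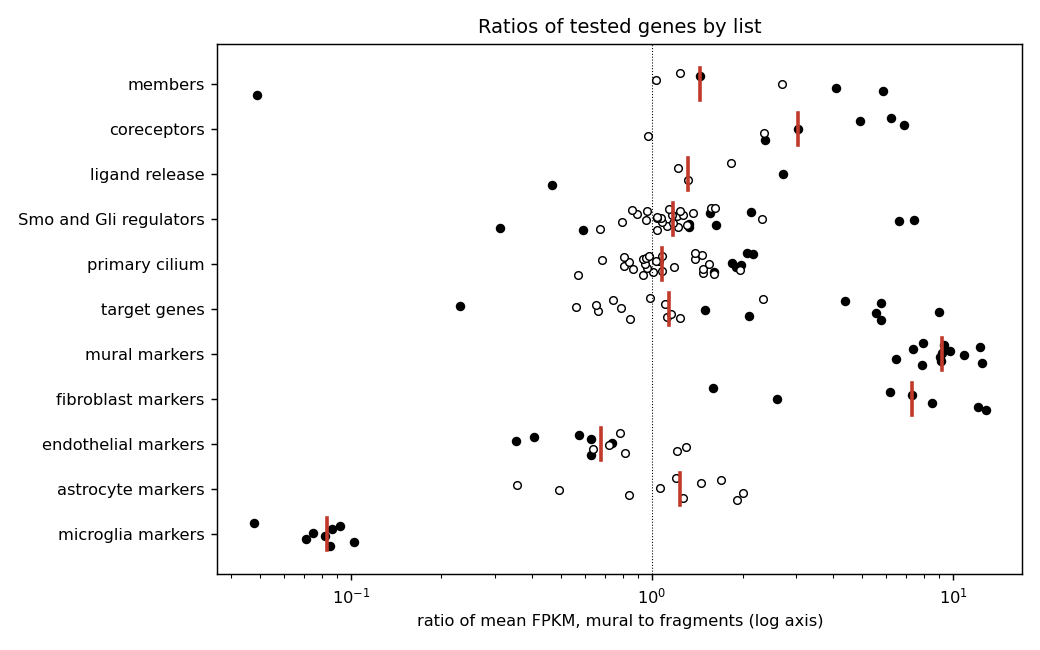
Ratio of mean FPKM in mural cells to that in fragments on a log axis, with 1 point per tested gene, filled where the gene passed, and a red line at the median of each list. Mural cell markers lie from 6.47 to 12.5 and microglial markers near 0.0836, and the hedgehog genes from 0.0487 to 5.86.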

How the data were processed

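RNA-seq was performed on 3 mural cell and 3 microvascular libraries. The authors depleted ribosomal RNA, prepared stranded total RNA libraries, mapped read pairs with TopHat2 2.0.4 against NCBIM37, discarded duplicates (Picard 1.92) and obtained FPKM from Cufflinks 2.2.1. They deposited 1 table of FPKM per library. Symbols and coordinates were taken from GENCODE for NCBIM37, which holds 33116 of 33460 genes.

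Log2(FPKM + 1) was fitted with limma 3.58.1 (intensity trend, Benjamini-Hochberg) in R 4.3.3 over the 14801 genes with at least 1 FPKM in at least 3 libraries, on all 6 libraries without covariates, since FPKM are not counts. The fit was also run on simulated data with independent libraries, which does not cover pairing by brain, and no result here rests on it. The value of 1 sequenced fragment was recovered from 4725 single-transcript genes over 1500 bases (180 bases subtracted), and 98.3 to 99.1% of low values came out whole within 0.1 fragment.

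The hedgehog genes, lists and rules were chosen with earlier results of these data known. Named were the 9 genes, every other pathway gene that passed and the 2 most abundant per list, the 3 nearest genes of each called member, and markers at 0 or on which a result turns. *Cdon*, *Gas1*, *Col1a2* and *Col3a1* were named outside this rule, after their values were seen. The symbols *Disp1*, *Foxl1* and *Lhfpl3* were unmatched, and 1 listed gene is not reported here. Replicates came from 3 animals, and the sources used here do not say whether equal numbers mark the same brain. The main fit therefore leaves out pairing by brain, although both groups came from the same 3 animals. Deviations of same-numbered libraries correlated at 0.0818, 0.0203 and 0.0454, and those of other pairs at -0.0613 to 0.0102.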

Additional observations from a re-analysis of the deposited data

How the results depend on the processing

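Under other settings, the 2 hedgehog genes higher by 2-fold became 1 (*Gli2*) without a filter on low values and 0 at an adjusted p under 0.01 in limma, where 3 had an unadjusted p under 0.05, and 0 to 2 with single libraries left out. With a minimum of 5 FPKM the count was 1, which was *Gli3*, since *Gli1* and *Gli2* were not tested there. The 2 became 3, by addition of *Gli3*, under median-ratio scaling, quantile normalization and a restriction to protein-coding genes (chosen after seeing the data). The 1 lower gene, *Dhh*, remained in all leave-one-out fits (1 to 1) and became 0 with a minimum of 5 FPKM, at which it was not tested. For the other changes the cause was not tested. *Gli1* lost its call without a filter (adjusted p 0.0664 in limma). The 17 other pathway genes that were higher became 26 without a fold limit and 13 to 19 with a library left out, and the 3 that were lower became 1 at an adjusted p under 0.01 and 1 to 3 with a library left out. The share of all genes called was computed on the main fit only, and not for the other fits or for an adjusted p under 0.01. *Ptch1* turned from 0.05 to -0.016 without fragments replicate 2 and ranged from -0.016 to 0.11 with single libraries left out. *Dhh* passed in 13 of 13 alternatives that gave a value (adjusted p 0.00338 to 0.0238 in limma).

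With the replicate number as a block, 3 hedgehog genes were higher by 2-fold and 1 lower, and 13 other pathway genes were higher and 3 lower. The share of all genes called with the block was not computed. *Gli3* then passed (adjusted p 0.0457 in limma) and *Smo* did not (0.0532). Of the 26 other pathway genes that passed as higher, 17 still did, and of the 4 lower all 4. Those lost were *Wdr35*, *Ift57*, *Ift81*, *Tulp3* and *Cc2d2a* of the cilium, and *Boc*, *Scube1*, *Csnk1a1* and *Csnk1g2*, with adjusted p in limma from 0.05 (*Ift81*) to 0.0653 (*Wdr35*). Same-numbered libraries correlated at 0.0203 to 0.0818 in their deviations and other pairs at -0.0613 to 0.0102. Each library correlated best with its own number, which is a hint from the data and not from the design.

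Depth limits *Shh*, *Hhip* and *Dhh* in mural cells, each with at most 9 sequenced fragments in a library.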
